A study of Mus musculus with 6 samples.

Results

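The 10 genes described here are 8 Toll-like receptors (Tlr1, Tlr2, Tlr3, Tlr4, Tlr7, Tlr8, Tlr9 and Tlr13), the co-receptor Cd14 and the adaptor Myd88. They were taken by name from a table of 24972 gene rows, and all 10 were present. RNA came from ventricular cardiomyocytes of MX1gfp mice, a strain that carries a green fluorescent reporter of Mx1, in both groups alike. The 3 vehicle mice received sterile saline buffer into the peritoneum, and the 3 doxorubicin mice received 25 mg per kg of doxorubicin, an anthracycline cancer drug that breaks DNA and harms heart muscle. Cells were taken 48 hours later. Digested ventricles were left to settle by gravity, which enriches for myocytes but sorts nothing, and each library holds 1 mouse. The labels give neither age nor sex.

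Toll-like receptors are innate immune receptors that bind microbial products and molecules released by damaged cells. Tlr1, Tlr2 and Tlr4 sit at the cell surface, whereas Tlr3, Tlr7, Tlr8, Tlr9 and Tlr13 bind nucleic acids inside endosomes. Every receptor listed here except Tlr3 signals through Myd88, which recruits the IRAK kinases and leads to NF-kappaB, and Tlr3 signals through Ticam1 (TRIF). Tlr4 uses both adaptors, and it receives lipopolysaccharide from Cd14 together with Ly96 (MD-2). In the heart these genes are known from resident and recruited myeloid cells, though not from these alone (Tlr4, for example, also from myocytes and endothelium).

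Values are the normalized read counts per gene that the authors deposited. The step between low values gave estimates of about 7710000 to 11370000 reads for a vehicle library and 3670000 to 6170000 for a doxorubicin library, so depth and treatment cannot be told apart. The 8 cardiomyocyte markers were all present in every library, but their summed level was 572009 to 682516 in the vehicle libraries and 519244 (replicate 1), 167089 (replicate 2) and 147660 (replicate 3) after doxorubicin. With quantile normalization Tnnt2 and Pln, 2 of the 8, had positive log2 fold changes (0.36 and 0.46). Replicate 1 thus stood nearer to the vehicle libraries than the other doxorubicin libraries did, and fits are given with and without it. The presence of Xist RNA set vehicle replicate 3 and doxorubicin replicates 1 and 3 apart from the other libraries, which carried the Y-linked Ddx3y.

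All 10 genes had a higher mean after doxorubicin, by 0.37 (Tlr3) to 2.15 (Tlr8) on the log2(value + 1) scale, with a median of 1.41 against -0.0046 over all 12477 genes tested. In Tlr2, Tlr7, Tlr8, Tlr13 and Cd14 every doxorubicin library lay above every vehicle library. These 5 of 10 genes compare with 19.2% of all tested genes whose groups lay apart in that direction and 22.6% in the other. With limma and Benjamini-Hochberg adjustment over all genes at a threshold of 0.05, 0 of the 10 genes passed, as did 0% of all genes in either direction. At an unadjusted p under 0.05, 6 of the 10 were higher, beside 16.7% of all genes higher and 19.3% lower. Without doxorubicin replicate 1, 8 of the 10 passed the adjusted threshold (all but Tlr1 and Tlr3), where 19.3% of all genes were called higher and 21.8% lower. That library was singled out after the values were seen, and it was the lowest doxorubicin library for 9 of the 10. Adjusted p values without it, here and below, are therefore no separate test. Without doxorubicin replicate 3, 0 of the 10 passed, beside 0 of all genes in either direction. The test with all libraries leaves each single gene uncalled, and the result depends on doxorubicin replicate 1.

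**Figure D1:**
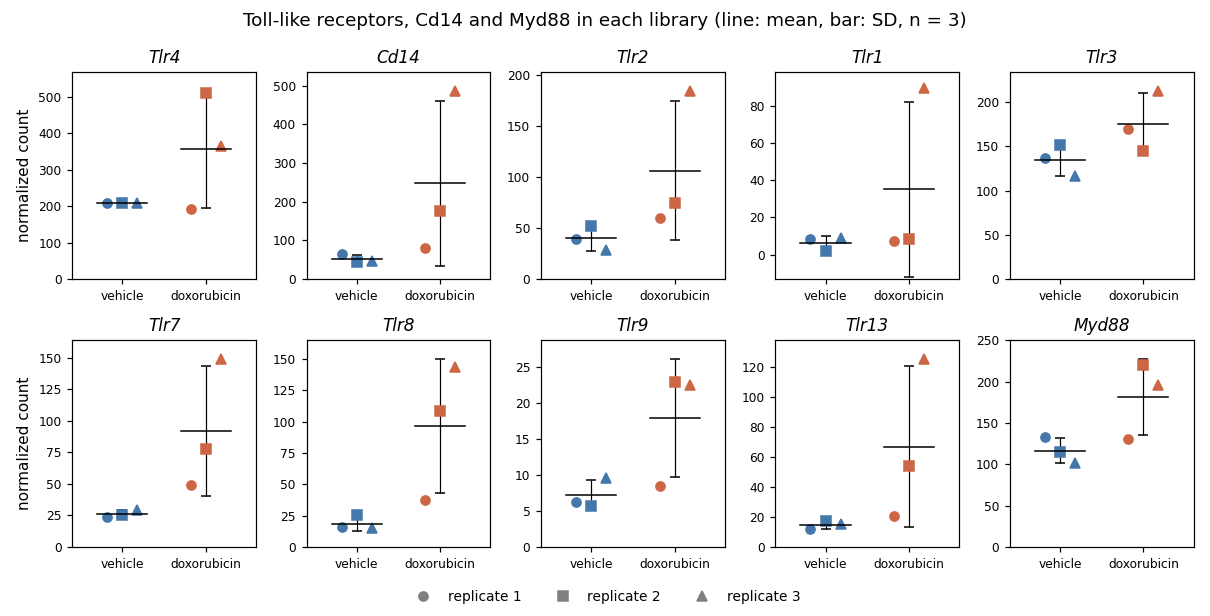
Normalized count of each gene (vertical axes, linear, a scale for each gene) in the 3 vehicle and 3 doxorubicin libraries. Points are libraries, shaped by replicate number, with the mean (line) and SD (bar). Cd14, Tlr2, Tlr7, Tlr8 and Tlr13 show no overlap between groups, and in Tlr1 a single doxorubicin library, at 89.2, stands above the rest.

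RefSeq windows of the 250 bases before a transcription start (GRCm38.p6) were searched for 7 of the 10 genes, in 8 windows. The search was for 3 motifs on both strands, since all 10 genes had a higher mean after doxorubicin. No window was at hand for Tlr4 and Tlr7, and Cd14 was left out of the search by choice. The counts below therefore describe a chosen part of the 10 genes. The NF-kappaB consensus was found in 2 of the 8 windows (Tlr2 and Tlr3), against 7.25% of 32851 windows of all genes. The core of the interferon-stimulated response element, GAAANNGAAA, was found in 1 (Myd88), against 2.98%. A core bound by the myeloid factor PU.1, GAGGAAGT, was found in 1 (Tlr1), against 2.44%. Matches to different motifs did not overlap, and a match describes the letters only. Sequence is shown for Tlr2 and Myd88, the receptor and the adaptor with a match to the first and second motif, 5′ to 3′ along the minus strand with the match in capitals. For Tlr2 it is the site alone (chr3:83841761-83841790), a pair of overlapping NF-kappaB matches 173 to 163 bases before the start, which lies inside the gene span given for Tlr2 because that span begins at a start further upstream. For Myd88 it is the whole window (chr9:119340019-119340268), with the interferon-type core 40 to 31 bases before the start.
Tlr2: aggacacctGGGGAATTCCCacacggagcc
Myd88: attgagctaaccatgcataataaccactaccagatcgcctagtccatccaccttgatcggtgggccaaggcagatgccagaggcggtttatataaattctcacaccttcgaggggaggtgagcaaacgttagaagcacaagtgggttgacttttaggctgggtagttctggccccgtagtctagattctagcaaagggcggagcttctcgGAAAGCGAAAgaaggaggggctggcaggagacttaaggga

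Among the surface receptors and their partner, Cd14 had the largest difference. Cd14 (chromosome 18, 36725064 to 36726815, GRCm38) anchors at the membrane and hands lipopolysaccharide to Tlr4. Its normalized counts were 64.5, 44.0 and 47.1 in the vehicle mice, in the order of replicates 1 to 3 used throughout, and 80.0, 176 and 487 in the doxorubicin mice. Every doxorubicin library was higher than every vehicle library, and the doxorubicin values spanned a wide range. The group means were 51.9 ± 11.1 and 248 ± 213 (SD, n = 3 in each), which limma fitted as 1.87 on the log2 scale (SE 0.58, 95% interval 0.53 to 3.22, adjusted p 0.0860). It was 1.20 without doxorubicin replicate 3 and 2.49 (adjusted p 0.0022) without replicate 1.

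Tlr4 (chromosome 4, 66827551 to 66846581), the lipopolysaccharide receptor, overlapped between the groups, unlike Cd14. Its vehicle values of 208, 209 and 209 lay within 1 count of their mean (SD 0.578), and the doxorubicin values were 191, 512 and 367. Doxorubicin replicate 1 lay below all vehicle libraries and the other 2 lay well above them, so the groups overlapped. On the log2 scale the difference was 0.66 (SE 0.33, 95% interval -0.0998 to 1.42, adjusted p 0.183). Without doxorubicin replicate 1 it was 1.05 with an adjusted p of 0.0026, and without replicate 2 it was 0.35. The ratio of Cd14 to Tlr4 within a library, which no scaling of libraries can alter, was 0.311, 0.211 and 0.226 in the vehicle libraries and 0.418, 0.343 and 1.33 in the doxorubicin libraries. The 2 groups of ratios did not overlap, and an exact two-sided permutation test of 3 against 3 cannot give a p below 0.1.

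Tlr2 (chromosome 3, 83836272 to 83841824), whose NF-kappaB match is shown above, binds bacterial lipoproteins as a pair with Tlr1 or Tlr6. It was at 39.5, 51.9 and 28.2 in the vehicle libraries and 59.8, 74.8 and 185 in the doxorubicin libraries, with no overlap. Its log2 fold change was 1.26 (SE 0.44, 95% interval 0.24 to 2.27, adjusted p 0.0959), and 0.77 without doxorubicin replicate 3. Without replicate 1 it was 1.58 (adjusted p 0.0160).

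Tlr1 (chromosome 5, 64924680 to 64933600), its partner, was low in 5 of the 6 libraries. Its values were 8.36, 1.93 and 8.88 in the vehicle libraries and 7.34, 8.41 and 89.2 in the doxorubicin libraries. Only doxorubicin replicate 3 stood apart, and the value of 1.93 rests on about 2 reads. The log2 fold change of 1.57 (SE 1.00, 95% interval -0.756 to 3.89, adjusted p 0.282) lay within the spread between libraries, and it was 0.45 without replicate 3. Tlr1 shares sequence with Tlr6, so reads could be split between them. Tlr6 itself was at 5.15, 5.80 and 7.10 in the vehicle libraries and 5.26, 10.9 and 21.4 in the doxorubicin libraries, with a mean too low for the test.

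In the 3 X-linked receptors of the endosome the groups did not overlap. Tlr7 (chromosome X, 167303380 to 167330574) and Tlr8 (167241123 to 167264329), neighbours on that chromosome, recognize single-stranded RNA. Tlr8 was at 15.6, 25.8 and 14.8 in the vehicle libraries and 37.9, 109 and 143 in the doxorubicin libraries, and doxorubicin replicate 1 exceeded the highest vehicle library. Its log2 fold change of 2.15 (SE 0.50, 95% interval 0.99 to 3.31, adjusted p 0.0859) ran from 1.77 without doxorubicin replicate 3 to 2.72 without replicate 1 (adjusted p 0.00063). Tlr7 was at 23.9, 25.2 and 29.6 against 49.2, 77.9 and 149, again without overlap. Its log2 fold change was 1.63 (SE 0.39, 95% interval 0.73 to 2.54, adjusted p 0.0859), and 2.00 without replicate 1 (adjusted p 0.0020). The ratio of Tlr8 to Tlr7 was 0.654, 1.02 and 0.5005 in the vehicle libraries and 0.770, 1.40 and 0.961 in the doxorubicin libraries, which overlap.

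Tlr13 (chromosome X, 106143275 to 106160493), a mouse receptor for bacterial ribosomal RNA, had values of 12.2, 17.4 and 15.1 in the vehicle libraries and 20.9, 54.2 and 126 in the doxorubicin libraries. All doxorubicin values were above all vehicle values, with replicate 1 close to the highest of these. The log2 fold change was 1.77 (SE 0.59, 95% interval 0.39 to 3.14, adjusted p 0.0906), 1.14 without doxorubicin replicate 3 and 2.41 without replicate 1 (adjusted p 0.0026). All 3 X-linked genes were highest in doxorubicin replicate 3 and lowest, among the doxorubicin libraries, in replicate 1, and both of these libraries carried Xist RNA. In vehicle replicate 3, which also carried it, Tlr8 was the lowest of the vehicle values and Tlr7 the highest.

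Tlr9 (chromosome 9, 106222598 to 106226876), which binds DNA rich in unmethylated CpG, was scarce. Vehicle values were 6.31, 5.73 and 9.56, on about 6 to 11 reads each, and doxorubicin values 8.44, 22.9 and 22.5. Doxorubicin replicate 1 lay inside the vehicle range and the other 2 above it. Its log2 fold change was 1.12 (SE 0.53, 95% interval -0.110 to 2.34, adjusted p 0.167), and 1.56 without replicate 1 (adjusted p 0.0287). Tlr1 and Tlr9 had a vehicle mean under 10, so they entered the test only through their doxorubicin values.

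Tlr3 (chromosome 8, 45395665 to 45411075), the receptor for double-stranded RNA, differed least. It was at 136, 152 and 116 in the vehicle libraries and 169, 145 and 213 in the doxorubicin libraries, and the groups overlapped because replicate 2 was below 1 vehicle library. The log2 fold change of 0.37 (SE 0.20, 95% interval -0.0843 to 0.83, adjusted p 0.205) was within the replicate spread. It stayed uncalled without doxorubicin replicate 1, at 0.39 (adjusted p 0.179).

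Myd88 (chromosome 9, 119335934 to 119340018), the adaptor with the interferon-type core, was at 133, 115 and 102 in the vehicle libraries and 131, 219 and 195 in the doxorubicin libraries. Doxorubicin replicate 1 lay just under the highest vehicle library, while the other 2 stood apart. For Myd88 the log2 fold change was 0.61 (SE 0.23, 95% interval 0.0858 to 1.14, adjusted p 0.106), and 0.83 without replicate 1 (adjusted p 0.0074). Both Myd88 and Tlr4 were highest in doxorubicin replicate 2, as was Tlr9 by a narrow margin, whereas the other 7 genes were highest in replicate 3.

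**Figure D2:**
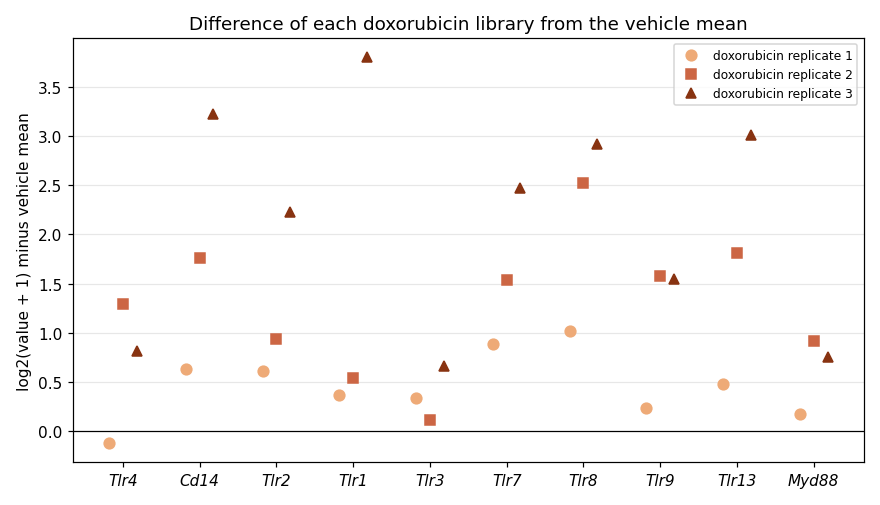
Difference of each doxorubicin library from the mean of the 3 vehicle libraries on the log2(value + 1) scale (vertical axis) for each gene (horizontal axis). Replicate 1 (circles) runs from -0.12 for Tlr4 to 1.02 for Tlr8, and replicate 3 (triangles) from 0.66 for Tlr3 to 3.80 for Tlr1.

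Measured against the vehicle mean, the median difference of the 10 genes was 0.42, 1.42 and 2.35 on the log2 scale in doxorubicin replicates 1 to 3. Over all tested genes the medians were -0.015, 0.0023 and -0.0061. The number of genes above every vehicle library was 6, 8 and 10. The share of all tested genes was not taken for single doxorubicin libraries. It cannot be below the 19.2% that lay above every vehicle library in all 3 of them. That is a stricter condition, so the 19.2% is a floor and not the share to set these counts against. In replicate 1 the 4 that were not above were Tlr1, Tlr4, Tlr9 and Myd88, and in replicate 2 the pair that were not were Tlr1 and Tlr3. Within the libraries with Xist (1 vehicle, 2 doxorubicin) the median difference of the 10 genes was 1.49, from 0.34 to 2.25, and within those with Y-linked RNA (2 vehicle, 1 doxorubicin) it was 1.46, from 0.0083 to 2.38. All 10 differences were positive in each class, although that of Tlr3 in the second was close to 0. These are values without a test, and the share of all tested genes was not taken for the counts within a class.

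**Figure D3:**
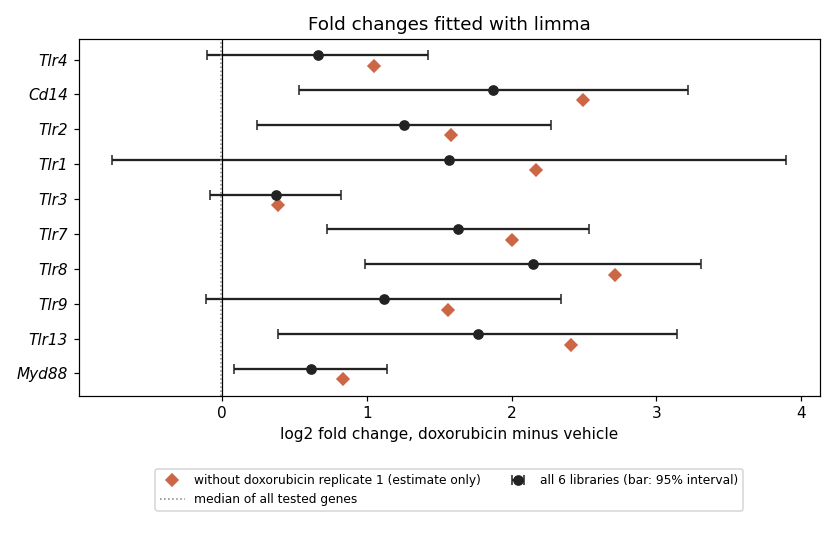
Log2 fold change, doxorubicin minus vehicle (horizontal axis), for each gene, from limma with all 6 libraries (circles, bars are 95% intervals) and without doxorubicin replicate 1 (diamonds, estimate only). The dotted line is the median of all tested genes, and the intervals of Tlr1, Tlr3, Tlr4 and Tlr9 include 0.

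Levels were compared between genes per kilobase of the longest coding transcript in GENCODE M21. In the vehicle libraries Myd88 was highest at a mean of 59.4 normalized counts per kilobase, followed by Tlr4 at 51.1, Cd14 at 31.6, Tlr3 at 30.6 and Tlr2 at 13.2. Tlr7, Tlr8, Tlr13, Tlr1 and Tlr9 followed at 6.73, 5.46, 3.67, 2.11 and 2.07. The ranges over the 3 vehicle libraries overlapped between Cd14 and Tlr3, between Tlr7 and Tlr8 and between Tlr1 and Tlr9, and were separate for the other neighbours in that order. Some of these gaps were narrow. The lowest Myd88 value was 52.0 against a highest Tlr4 value of 51.2. For Tlr8 against Tlr13 they were 4.31 and 4.28, and for Tlr13 against Tlr1 they were 2.99 and 2.94. In the doxorubicin libraries Cd14 had the highest mean level, 151 normalized counts per kilobase, above Myd88 at 92.8 and Tlr4 at 87.5. That order rested on replicate 3, in which Cd14 reached 297 per kilobase, since in replicate 1 Myd88 (66.6) and in replicate 2 Tlr4 (126) and Myd88 (112) were above Cd14 (48.8 and 107).

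Markers of other cell types also differed between the libraries. All 10 macrophage markers were present in every library, and their summed level was 2515 to 2723 in the vehicle libraries against 4122, 6630 and 15034 after doxorubicin. Of the 10, 9 had a positive log2 fold change and 8 had groups that lay apart with doxorubicin higher, as in 19.2% of all tested genes. The 7 neutrophil markers summed to 6.70 to 12.2 in the vehicle libraries, where Retnlg, Ly6g, Ngp and Camp were listed at 0, and to 17.6, 246 and 217 in the doxorubicin libraries. Of those listed at 0, Retnlg had 2.09, 93.6 and 48.0 after doxorubicin. Ly6g (0, 1.20 and 1.48) and Camp (0, 1.21 and 0) stayed at or near 0. Only 3 of the 7 were tested, and among these the groups of Csf3r and Mmp8 overlapped. The 4 monocyte markers summed to 21.3 to 29.4 against 48.1 to 109.5. Chil3 held much of the higher sums, with 0, 0 and 0.889 against 7.34, 67.5 and 30.7. Ccr2 differed by 0.36 on the log2 scale (limma adjusted p 0.415), and Ly6c2 and Plac8 were too low for the test. B cell markers, 4 genes, summed to 9.59 to 28.7 in the vehicle libraries and 42.9, 4.76 and 3.00 in the doxorubicin libraries. Fibroblast markers (8 genes) summed to 6236 to 8274 against 8639, 22816 and 16406. Dcn held much of that, with 2446 to 2905 against 3113, 18072 and 11326, and the other 7 genes together gave 3725 to 5369 against 4744 to 5526, which overlapped. Of the 8, 3 had groups that lay apart with doxorubicin higher, and Col3a1 had a log2 fold change of -0.42. The endothelial markers (8 genes) summed to 12534 to 16316 against 18583 to 24382. In bulk RNA, fewer cells of a type and less RNA per cell cannot be told apart, and the part of these cell types in the differences above was not tested.

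**Figure D4:**
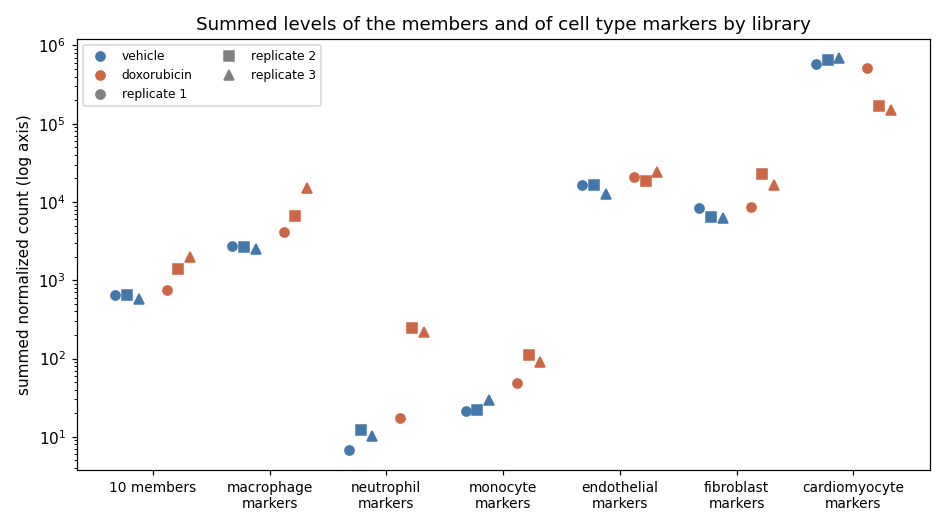
Summed normalized count (vertical axis, log scale) of the 10 genes and of 6 marker lists in each library, coloured by group and shaped by replicate. The summed level of the 10 genes was 580.0 to 647 in the vehicle libraries against 755, 1399 and 1977 after doxorubicin, and the macrophage sum has the same order of libraries while the cardiomyocyte sum runs the other way.

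Each gene was also set against the summed macrophage markers of the same library. Per 100 counts of that sum, the vehicle and doxorubicin ranges overlapped for 8 of the 10 genes and were lower after doxorubicin for Tlr3 and Myd88. Before division the ranges of 5 of the 10 overlapped, and ranges that overlap with 3 libraries in each group do not show that values are equal. Tlr8 stood at 0.574, 0.972 and 0.588 per 100 in the vehicle libraries and 0.918, 1.64 and 0.954 in the doxorubicin libraries. Cd14 stood at 2.37, 1.66 and 1.87 per 100 in the vehicle libraries and 1.94, 2.65 and 3.24 in the doxorubicin libraries. Tlr7 stood at 0.878, 0.951 and 1.18 against 1.19, 1.17 and 0.992. Myd88 stood at 4.87, 4.32 and 4.05 against 3.17, 3.31 and 1.30. These ratios were formed after the values were seen and carry no test. The share of all tested genes was not taken for them. The macrophage sum was itself higher in every doxorubicin library, so a gene with little difference comes out lower per 100. Lyz2 held 28.9% to 45.3% of that sum.

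The rest of the pathway was followed through 64 further genes in 8 lists, of which 57 were tested. Of these, 41 had a positive and 16 a negative log2 fold change, with a median of 0.53. With equal library totals the split was 52 positive and 5 negative. The groups did not overlap in 24 higher and 3 lower genes, where 19.2% and 22.6% of all tested genes did so, the shares against which the counts in each list below are to be read. The adjusted threshold was passed by 0 of the 57. Without doxorubicin replicate 1, 27 passed as higher and 3 as lower, beside 19.3% and 21.8% of all genes. The 7 untested genes were too low, and in 0 of them did the groups lie apart. Tlr5, Ticam2, Ikbke, S100a8 and S100a9 entered the test only through their doxorubicin values.

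Among the other receptors, Tlr5, which binds flagellin, was at 5.74, 5.77 and 3.52 in the vehicle libraries and 12.6, 34.9 and 25.0 in the doxorubicin libraries, with no overlap (log2 fold change 1.98, SE 0.51, adjusted p 0.0859). Tlr11 and Tlr12 did not exceed 2.90 in any library. Of the 5 surface co-receptors, Lbp and Ly86 had groups that did not overlap. Lbp, the lipopolysaccharide-binding protein, was at 40.0, 38.2 and 37.6 in the vehicle libraries and 57.9, 392 and 216 in the doxorubicin libraries (log2 fold change 2.11, SE 0.61, adjusted p 0.0859). Ly86, the partner of Cd180, differed by 0.89 on the log2 scale (adjusted p 0.0860). Cd36, a fatty acid transporter of the myocyte that also assists Tlr2, differed by 0.59 on the log2 scale (adjusted p 0.284), or by 1.40 with quantile normalization, and its groups overlapped.

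Ly96, the subunit that Tlr4 needs to bind lipopolysaccharide, was named after its values were seen because its groups overlapped while those of Cd14 did not. It was at 20.0, 13.4 and 11.6 in the vehicle libraries and 16.7, 9.54 and 21.9 in the doxorubicin libraries, and its difference on the log2 scale was 0.054 (SE 0.44, adjusted p 0.941), or -0.25 with quantile normalization. The ratio of Cd14 to Ly96 was 3.22, 3.29 and 4.06 in the vehicle libraries and 4.802, 18.4 and 22.2 in the doxorubicin libraries, without overlap. Ly96 was low in every library and was picked for its overlap, so this ratio adds little to the Cd14 values.

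Of 8 genes for trafficking and processing of endosomal receptors, 6 had a positive log2 fold change, and the groups did not overlap in 3 higher genes and 1 lower. The protease Ctsb differed by 0.12 on the log2 scale (adjusted p 0.739) and the protease Lgmn by 0.40 (adjusted p 0.150). Hsp90b1, the chaperone of most Toll-like receptors, was the gene that was lower, from 3446 to 2718 on average (log2 fold change -0.34, adjusted p 0.191). Its log2 fold change was -0.040 with equal library totals and -0.016 with quantile normalization. Unc93b1, which escorts the nucleic acid receptors to endosomes and was named after its values were seen, was at 197, 195 and 180 against 249, 259 and 560 (log2 fold change 0.79, adjusted p 0.113). Ctss, a myeloid protease likewise named afterwards, was at 89.9, 91.2 and 107 against 188, 328 and 1524, with no overlap and a mean that rested on replicate 3 (log2 fold change 2.24, adjusted p 0.0859).

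The other adaptors gave 4 tested genes of 5, all with a positive log2 fold change, and groups that did not overlap in Tirap and Pik3ap1. Tirap, the bridge between Tlr2 or Tlr4 and Myd88, was at 74.0, 87.2 and 94.3 in the vehicle libraries and 101, 135 and 128 in the doxorubicin libraries (log2 fold change 0.50, SE 0.19, adjusted p 0.107). Ticam1, the adaptor of Tlr3, differed by 0.089 on the log2 scale (SE 0.17, adjusted p 0.730). Pik3ap1 had 28.5, 27.8 and 385 in the doxorubicin libraries, so its log2 fold change of 1.59 (adjusted p 0.244) rested on replicate 3.

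The 17 kinases and ubiquitin enzymes went both ways, with 7 positive and 10 negative log2 fold changes and a median of -0.067. The groups did not overlap in 7 higher and 2 lower genes. The lower pair were Irak1 (log2 fold change -0.25, adjusted p 0.252), the most abundant IRAK kinase here, and Ube2n (log2 fold change -0.43, adjusted p 0.0903, or -0.13 with equal library totals), which builds ubiquitin chains with Traf6 and was named after its values were seen. The abundant Ube2v1 and Tab2 had log2 fold changes of -0.20 (adjusted p 0.365) and -0.033 (adjusted p 0.882). Within the IRAK family, named after the values were seen, Irak2 was at 109, 78.9 and 83.5 against 132, 329 and 252 (log2 fold change 1.30, adjusted p 0.0859), and Irak4 at 40.8, 25.0 and 36.9 against 56.7, 74.5 and 116 (log2 fold change 1.21, adjusted p 0.0859). Irak2 and Irak4 thus lay higher in every doxorubicin library, and Irak1 lower in every one. Scaling every library to 1 total moved the median log2 fold change of all genes to 0.30, and the split of these 17 genes to 14 positive and 3 negative. Under it Irak1 stood at 0.051, Ube2v1 at 0.098 and Tab2 at 0.27 on the log2 scale, and under quantile normalization Tab2 stood at 0.070, so their direction depended on the scaling.

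Of 9 negative regulators, 6 had a positive log2 fold change and 3 higher genes had groups that did not overlap. Dusp1 had a log2 fold change of -0.23 (adjusted p 0.387) and Tollip one of -0.046 (adjusted p 0.822), and both turned positive with equal library totals (0.068 and 0.26). Nfkbia, the inhibitor of NF-kappaB that NF-kappaB itself induces, was at 348, 306 and 210 in the vehicle libraries and 308, 1041 and 858 in the doxorubicin libraries (log2 fold change 1.20, adjusted p 0.105). Doxorubicin replicate 1 lay among the vehicle libraries, as for Myd88. Irak3, the inhibitory IRAK of myeloid cells, was named after its values were seen, with 66.1, 78.1 and 52.2 against 79.0, 350 and 350 (log2 fold change 1.71, adjusted p 0.0878).

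Of 6 genes for proteins described as endogenous ligands, 5 had a positive log2 fold change, and S100a8, S100a9 and Bgn had groups that did not overlap. Bgn, a matrix proteoglycan, was at 1487, 1225 and 1325 against 1763, 2232 and 2529 (log2 fold change 0.68, SE 0.19, adjusted p 0.0859). Hmgb1, a nuclear protein released by dying cells, differed by 0.11 on the log2 scale (adjusted p 0.618), and Vcan by 0.72 (adjusted p 0.252). S100a8 and S100a9, abundant in neutrophils and named after their values were seen, did not exceed 5.71 and 8.80 in the vehicle libraries. In the doxorubicin libraries S100a8 was at 14.5, 129.8 and 107, and S100a9 at 24.0, 264 and 151.

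Of 10 genes for products of Toll-like receptor signalling, 7 were tested, all with a positive log2 fold change, and 3 had groups that did not overlap. Il1b had 23.0, 12.5 and 9.70 in the vehicle libraries and 33.5, 30.1 and 979 in the doxorubicin libraries (log2 fold change 2.75, SE 1.23, adjusted p 0.151). Its size thus rested on replicate 3. Ccl2, a chemokine for monocytes, was at 77.5, 69.0 and 42.6 against 98.0, 134 and 259 (log2 fold change 1.29, adjusted p 0.0859), and Nfkbiz differed by 0.38 on the log2 scale (adjusted p 0.480). Ifnb1 was listed at 0 in all 6 libraries and Il12b in 5 of them.

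The genes most like Cd14, Myd88 and Tlr4 over the 6 libraries were sought among those with a mean of at least 100. By Pearson correlation of log2 values, Cd14 was most like Itgb2 (0.998), the beta chain of leukocyte integrins, then Sav1 (0.998) and Maf (0.998). Myd88 was most like BC005624 (0.998), Gpx1 (0.997) and Ddit4 (0.996), and Tlr4 most like Ggps1 (0.996), Slit3 (0.996) and Rnf4 (0.995). Among 8223 candidates and over only 6 libraries, which share the split by treatment and by depth, values this high describe the order of the libraries and no more.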

How the data were processed

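Per the series' design text and the labels, reads were aligned with STAR 2.6.1a to mm10 with RefSeq genes in Illumina's BaseSpace, and Salmon is named in the submitters' processing notes. How genes were counted, whether strand was used and how values were normalized is not given in the sources used here. What the authors deposited is a signal without negative values, normalized counts per gene, 1 column for each library. It is not in whole numbers, so count models were not used. The 12477 genes whose mean over the 6 libraries reached 10 were fitted on the log2(value + 1) scale, which understates low genes. The test was limma 3.58.1 (R 4.3.3) with a mean-dependent prior, two-sided, with Benjamini-Hochberg adjustment over all of them. The fit was tried on simulated data in which both groups had the spread of the vehicle libraries. That trial therefore does not speak for the wider spread of the doxorubicin libraries.

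The genes, lists and tests were chosen with earlier results of these data known. All 10 genes were named, with the 3 of highest mean from each pathway list, all other Toll-like receptors, and those marked as chosen after their values were seen. Coordinates are from RefSeq for GRCm38.p6 (mm10), where 0 annotated genes overlapped the 10. Markers of 3 further cell types had summed levels of 130.0 to 168 (vehicle) and 155 to 244 (doxorubicin) for dendritic cells (92.1% to 97.0% of it Zbtb46), 1.27 to 8.76 and 3.61 to 18.9 for T and NK cells, and 9029 to 12630 and 9759 to 12529 for mural cells (without Rgs5, 4695 to 4922 and 2665 to 4489). Figures used matplotlib 3.10.9.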

Additional observations from a re-analysis of the deposited data

How the results depend on the processing

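In limma fits of all 6 libraries without weights, 0 genes passed at pseudocounts of 0.5 and 8, without a filter, at a minimum mean of 50, with equal totals, quantile normalization, no trend, robust estimation or the Xist class covariate, where 3708 to 4940 genes had an unadjusted p under 0.05 (the replicate block included) and the smallest adjusted p ran from 0.0641 to 0.115. Weighting libraries called 1954 of the 12477 genes higher and 2318 lower, among them 6 of the 10 (Tlr4, Tlr7, Tlr8, Tlr13, Myd88 and Cd14). The weights were 0.277, 1.13 and 0.425 for doxorubicin replicates 1 to 3 and 1.47, 3.24 and 1.59 for the vehicle replicates. They were estimated from the same values, so these calls are no separate test. A threshold of 0.10 gave 1383 higher and 1639 lower. Leaving out 1 library gave 0 to 2409 higher and 0 to 2718 lower, the upper ends without doxorubicin replicate 1. The median of the 10 genes ran from 0.84 (without doxorubicin replicate 3) to 1.79 (without replicate 1) over all settings, and all genes of the 10 that were tested stayed positive in each. At a minimum mean of 50, Tlr1, Tlr9 and Tlr13 were not tested. A replicate block gave 0 genes higher and 0 lower. Same-numbered libraries did not deviate together (correlations -0.128, 0.033 and -0.093 over 12477 genes), so the numbers were not taken as pairs. Low read numbers limit Tlr1 and Tlr9 most.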
